A study of Mus musculus with 12 samples.

Results

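Transcripts of 10 genes of early B cell development were followed in stem and progenitor cells of mouse bone marrow. The 10 genes, picked by name out of the 55487 genes measured, are Rag1, Rag2, Dntt, Ebf1, Pax5, Cd79a, Cd79b, Vpreb1, Igll1 and Blnk. RNA was sequenced from LSK cells, a sorted marrow fraction without lineage markers that carries Sca1 and c-Kit and holds the haematopoietic stem cells and early progenitors. The 12 libraries fall into 3 genotypes of 4 libraries each: Yy1-/-, labelled as lacking the DNA-binding factor YY1 (Yin Yang 1), which has zinc fingers; Yy1-/- Smc3+/-, labelled the same for Yy1 and as heterozygous for Smc3, a core subunit of the cohesin ring; and Yy1+/+, the wild-type control. Age, sex, strain, batch and the way Yy1 was removed are not given in the sources used here, nor is it stated that each library came from its own animal, so p-values measure the spread between these libraries, which may be technical.

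Lymphoid fate begins within this fraction. Progenitors that carry Flt3 and transcribe Dntt and the Rag genes at a low level become lymphoid-primed, and in common lymphoid progenitors interleukin 7 signals and the factors EBF1 and PAX5 then install the B cell programme. That programme makes the immunoglobulin-associated chains Cd79a and Cd79b, the surrogate light chain of Vpreb1 and Igll1, and the adaptor Blnk, which together read out the first successful heavy chain rearrangement. Dntt, Cd79b and Blnk are also transcribed before full B lineage commitment or in other blood cells, while Pax5 marks commitment itself.

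Yy1 reads were 0.407, 0.996, 5.01 and 12.2 CPM (read counts scaled to the size of each library) in Yy1-/- replicates 1 to 4, 0.772, 0.795, 4.45 and 0.944 CPM in Yy1-/- Smc3+/- replicates 1 to 4, and 33.9, 41.3, 34.2 and 34.0 CPM in Yy1+/+ replicates 1 to 4. Both mutant genotypes were thus below every Yy1+/+ library, and 3 mutant libraries (Yy1-/- replicates 3 and 4, Yy1-/- Smc3+/- replicate 3) kept more Yy1 reads than the others. Of the sort markers, Kit was lower in both mutants (100.1 to 242.1 CPM in Yy1-/-, 180.4 to 372.6 CPM in Yy1-/- Smc3+/- and 421.5 to 981.2 CPM in Yy1+/+), and Ly6a, which encodes Sca1, passed the test in neither. Of 13 stem cell genes, Kit among them, 0 rose and 12 fell in each mutant (median log2 fold change -2.87 in Yy1-/- and -2.92 in Yy1-/- Smc3+/-) against Yy1+/+. The share of all genes tested that fell was 18.8% in Yy1-/- and 16.7% in Yy1-/- Smc3+/-. Summed expected counts were between 38671354 and 69086104 per library. In bulk RNA, fewer cells of a type and less RNA per cell cannot be told apart, which holds for all that follows.

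Per unit of transcript length, as TPM (which scales reads by transcript length and library), the wild-type level was led by Dntt at 151.7 ± 39.1 and Cd79b at 85.6 ± 5.39 TPM (mean ± SD, n = 4, as for all means here). Cd79a at 10.6 ± 3.75, Blnk at 5.40 ± 1.17, Vpreb1 at 2.70 ± 1.61, Rag2 at 2.13 ± 1.32 and Igll1 at 1.29 ± 2.39 TPM formed a low tier, in which the last 3 overlapped in their spread. Ebf1 averaged 0.138 ± 0.0974, Rag1 0.0450 ± 0.0526 and Pax5 0.005 ± 0.01 TPM. The B commitment factors were therefore near absent from wild-type LSK cells, while the early lymphoid transcript Dntt was plentiful. In Yy1-/- libraries the top of the order was reversed, with Cd79b at 53.6 ± 7.36 and Dntt at 25.5 ± 20.1 TPM. In Yy1-/- Smc3+/- libraries Dntt averaged 61.9 ± 45.4 and Cd79b 59.3 ± 5.41 TPM, levels that did not differ beyond their spread, with Cd79a next at 21.3 ± 7.87 TPM.

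**Figure D1:**
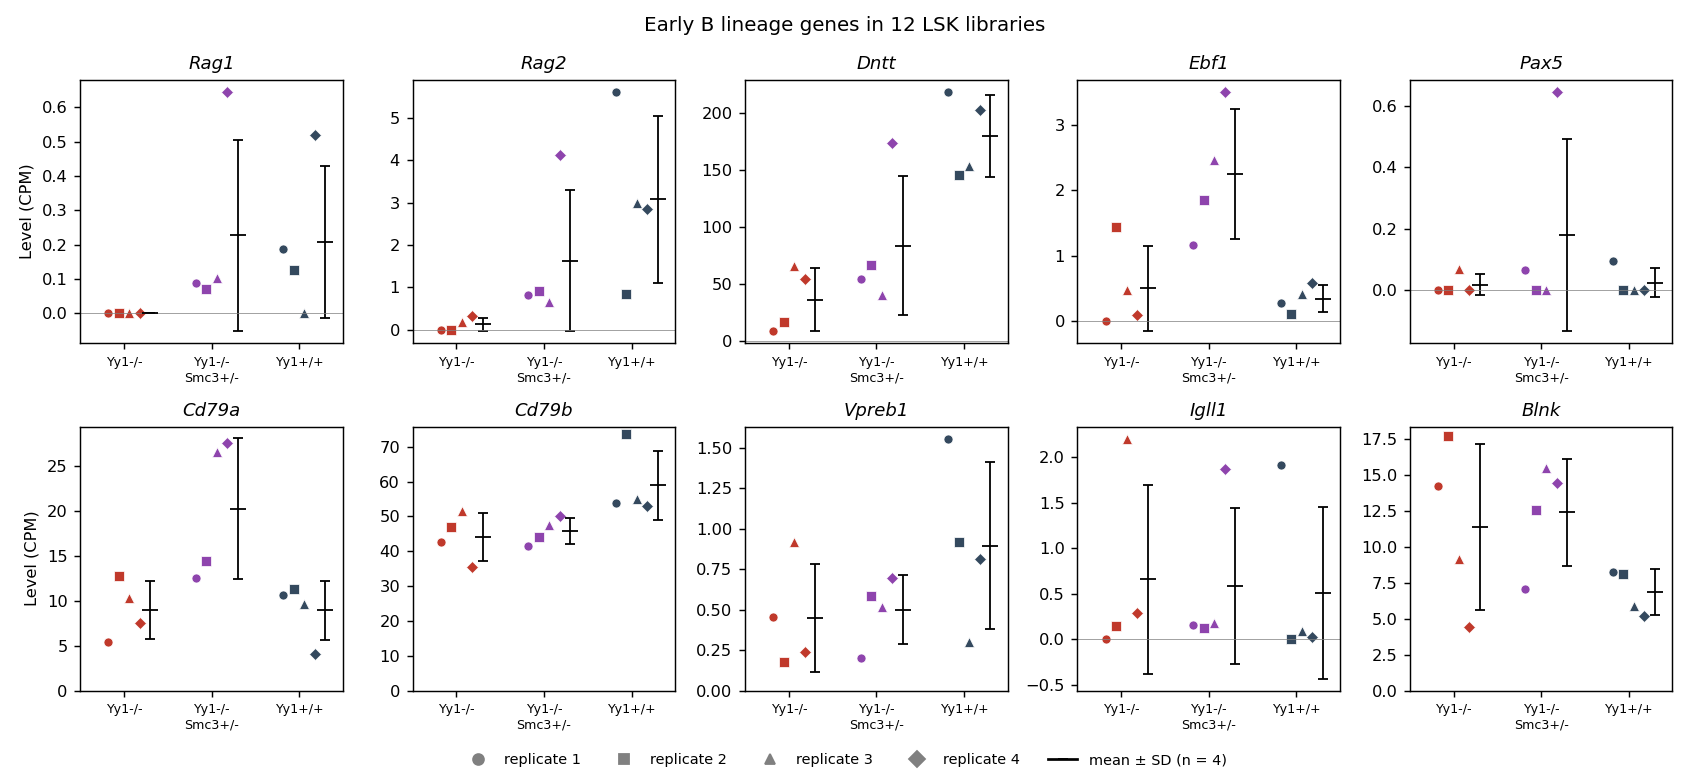
Level of each of the 10 genes in CPM (linear axis, own scale per gene) for the 4 libraries of each genotype, with marker shape giving the replicate and black bars the mean ± SD. By mean, Rag2 and Dntt are lowest in Yy1-/- and Ebf1 and Cd79a highest in Yy1-/- Smc3+/-, though single Yy1-/- and Yy1-/- Smc3+/- libraries overlap for Dntt, Ebf1 and Cd79a, and Yy1-/- Smc3+/- replicate 4 is the top library of its group in 9 of the 10 genes.

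On build GRCm38, Rag1 spans chr2:101638282-101649501 on the minus strand and Rag2 chr2:101624718-101632529 on the plus strand next to it, and Dntt spans chr19:41029275-41059525. Ebf1 spans chr11:44617317-45008091, Pax5 chr4:44524757-44710487, Cd79a chr7:24897381-24902197 and Cd79b chr11:106311341-106314762. Vpreb1 at chr16:16868403-16870843 and Igll1 at chr16:16860671-16863985 are neighbours, and Blnk lies at chr19:40928927-40994535.

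The genes that fell were recombination genes. Rag1 and Rag2 encode the 2 subunits of the recombinase that cuts immunoglobulin and T cell receptor gene segments, and Dntt encodes terminal deoxynucleotidyl transferase, which adds untemplated bases to the cut ends. In Yy1-/- cells Rag2 and Dntt fell, and Rag1 was not detected. With Smc3 heterozygosity added, the mean levels of Rag2 and Dntt lay between those of Yy1-/- and Yy1+/+.

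Rag2 was at 0, 0, 0.180 and 0.310 CPM in Yy1-/- replicates 1 to 4, at 0.816, 0.912, 0.647 and 4.12 CPM in Yy1-/- Smc3+/- replicates 1 to 4, and at 5.62, 0.837, 2.99 and 2.84 CPM in Yy1+/+ replicates 1 to 4. Every Yy1-/- library lay below every other library, while Yy1-/- Smc3+/- overlapped Yy1+/+. The log2 fold change was -4.64 ± 0.95 (SE) for Yy1-/- against Yy1+/+ (edgeR quasi-likelihood test with Benjamini-Hochberg adjustment over all 16649 genes tested, used for every adjusted p below unless another tool is named, adjusted p = 0.00141). The change rests on few reads, 20.59 over the 4 Yy1-/- libraries and 617 over the 4 Yy1+/+ libraries, and came to -5.64 without Yy1-/- replicate 4, with an adjusted p of 0.00412 (4e-05 to 0.0241 over 20 alternatives). Rag2 lies inside the annotated span of B230118H07Rik, a gene on the opposite strand, and the library kit does not record strand. That gene, at 26.4 to 42.0 CPM over all libraries, changed in no comparison. Rag2 had a fractional expected count, a mark of reads shared between genes, in 1 of 12 libraries. This was Yy1-/- replicate 4, with 12.59 counts for Rag2 and 1389.41 for B230118H07Rik. The part of shared reads in the Rag2 counts was not tested.

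Dntt was at 8.72, 16.0, 65.4 and 54.0 CPM in Yy1-/- replicates 1 to 4, at 54.1, 66.8, 40.6 and 173.5 CPM in Yy1-/- Smc3+/- replicates 1 to 4, and at 219.0, 145.8, 153.9 and 202.6 CPM in Yy1+/+ replicates 1 to 4. No Yy1-/- library reached the lowest Yy1+/+ library, 3 Yy1-/- Smc3+/- libraries lay in the Yy1-/- range or just above it, and Yy1-/- Smc3+/- replicate 4 lay within the Yy1+/+ range. The log2 fold change was -2.32 ± 0.57 for Yy1-/- against Yy1+/+ (adjusted p = 0.00721).

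Across the 10 genes, Yy1-/- replicate 1 was the lowest of its genotype for 4 (Dntt, Ebf1, Cd79a and Igll1), as it was for 35.4% of all genes tested. Within Yy1-/-, Dntt was lowest in replicates 1 and 2, and these libraries also stood apart in other measures. Their Yy1 level was the lowest of the genotype, and without the 3 libraries that kept Yy1 reads the Dntt fold change became -3.89 (adjusted p = 0.00055, the lowest over the alternatives, of which the highest was 0.0214), with Rag2 at 0 in both remaining Yy1-/- libraries. The same libraries held the most monocyte RNA: the summed level of 10 monocyte genes was 6670, 4494, 564.6 and 844.0 CPM in Yy1-/- replicates 1 to 4, against 508.5 to 1265 CPM in Yy1+/+. Lyz2, the lysozyme of macrophages and monocytes, led that sum, and none of the 10 genes was at 0 in all libraries of a genotype. The part of monocyte RNA in the Dntt difference was not tested.

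Rag1 had 0 counts in all 4 Yy1-/- libraries, 4, 3, 4 and 26 counts in Yy1-/- Smc3+/- replicates 1 to 4, and 10, 8, 0 and 23 counts in Yy1+/+ replicates 1 to 4. All Yy1-/- Smc3+/- libraries thus held Rag1 reads, and 1 Yy1+/+ library held none. The gene was below the filter on low counts, which asks for about 10 counts in 4 libraries. Its level was at least 12.2-fold lower in Yy1-/- than in Yy1+/+ and at least 13.3-fold higher in Yy1-/- Smc3+/- than in Yy1-/-, taking 3 counts over the Yy1-/- group as the limit (0.0171 CPM); this limit covers counting error only, since PCR copies are not independent molecules. Two-sided exact permutation tests over 8 libraries gave p = 0.143 for Yy1-/- against Yy1+/+, p = 0.857 for Yy1-/- Smc3+/- against Yy1+/+ and p = 0.0286 for Yy1-/- Smc3+/- against Yy1-/-, the last being the smallest p that 4 against 4 allows. Rag1 lies wholly inside the annotated span of B230118H07Rik, on the same strand. That gene was at 26.4 to 42.0 CPM over all libraries, and the part of its reads in the Rag1 counts was not tested.

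The promoters of Dntt and Rag2 are printed because both genes fell in Yy1-/-. RefSeq promoters of build GRCm38.p6, which hold 250 bases before and 50 after the annotated start, were found for 9 of the 10 genes (not Cd79b). Dntt is at chr19:41029025-41029324 and Rag2 at chr2:101624462-101624761, both on the plus strand, written 5′ to 3′ with the start as base 251. Capitals mark matches on either strand to CCATNTT, the core of the motif YY1 binds, and to the E box hexamers CAGGTG and CAGCTG, which E proteins such as the product of Tcf3 can bind; no matches overlap.
Dntt: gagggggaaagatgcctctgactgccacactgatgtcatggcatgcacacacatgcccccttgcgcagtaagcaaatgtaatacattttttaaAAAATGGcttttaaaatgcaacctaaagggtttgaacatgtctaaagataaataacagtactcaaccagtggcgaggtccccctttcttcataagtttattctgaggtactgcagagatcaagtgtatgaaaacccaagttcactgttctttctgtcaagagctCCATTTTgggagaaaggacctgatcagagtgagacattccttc
Rag2: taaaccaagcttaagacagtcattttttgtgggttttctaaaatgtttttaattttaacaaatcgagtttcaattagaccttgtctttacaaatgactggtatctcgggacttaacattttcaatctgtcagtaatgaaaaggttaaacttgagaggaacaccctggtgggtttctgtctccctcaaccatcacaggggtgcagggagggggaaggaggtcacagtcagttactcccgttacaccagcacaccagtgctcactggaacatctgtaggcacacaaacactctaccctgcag
The Dntt promoter holds CCATNTT at base 94, on the minus strand, and at base 258, just after the start. No other promoter of the set holds it, and 16.1% of 32851 mouse promoters of this length do. The Rag2 promoter holds none of the motifs searched. These matches describe letters in a window and are not shown to be bound in these cells.

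The factors Ebf1 and Pax5 and the receptor chains behaved differently. Ebf1 opens the B cell programme and Pax5 fixes it. Cd79a and Cd79b carry the signal of the pre-B and B cell receptors, and Vpreb1 and Igll1 form the surrogate light chain that stands in before a true light chain exists. Ebf1 and Cd79a rose in Yy1-/- Smc3+/- against Yy1+/+, and neither rose in Yy1-/-. Cd79b, Vpreb1 and Igll1 passed the test in no comparison, though Cd79b was called under some alternatives. Pax5 was below the filter on low counts and did not enter that test.

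Ebf1 was at 0, 1.43, 0.471 and 0.0955 CPM in Yy1-/- replicates 1 to 4, at 1.17, 1.85, 2.46 and 3.50 CPM in Yy1-/- Smc3+/- replicates 1 to 4, and at 0.282, 0.110, 0.409 and 0.586 CPM in Yy1+/+ replicates 1 to 4. All Yy1-/- Smc3+/- libraries lay above all Yy1+/+ libraries, while Yy1-/- spread over both ranges, with replicate 2 highest. The log2 fold change was 2.76 ± 0.69 for Yy1-/- Smc3+/- against Yy1+/+ (adjusted p = 0.00869) and 0.73 ± 0.88 for Yy1-/- against Yy1+/+ (adjusted p = 0.55). The rise was called whichever single library was left out, and with the older dispersion estimate of edgeR it was not (2.69, adjusted p = 0.083, the highest over the alternatives, of which the lowest was 0.00291). These are low levels, 368 counts over the 4 Yy1-/- Smc3+/- libraries and 67 over the 4 Yy1+/+ libraries. An antisense gene inside Ebf1, Gm12158, had 0 counts in all 12 libraries.

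Pax5 was at 0, 0, 0.0673 and 0 CPM in Yy1-/- replicates 1 to 4, at 0.0662, 0, 0 and 0.646 CPM in Yy1-/- Smc3+/- replicates 1 to 4, and at 0.0939, 0, 0 and 0 CPM in Yy1+/+ replicates 1 to 4. Of its 37 counts over all libraries, 26 came from Yy1-/- Smc3+/- replicate 4. Its span overlaps 4 other annotated genes, on both strands. Overlap was taken over whole spans, so whether reads of these genes fall in the exons of Pax5 was not examined. Pax5 was below the filter on low counts, and the two-sided exact permutation p was 1.0 for Yy1-/- against Yy1+/+ and 0.714 for Yy1-/- Smc3+/- against Yy1+/+ and against Yy1-/-. A B commitment factor was thus at the edge of detection in every genotype.

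Cd79a was at 5.41, 12.8, 10.3 and 7.50 CPM in Yy1-/- replicates 1 to 4, at 12.5, 14.5, 26.6 and 27.5 CPM in Yy1-/- Smc3+/- replicates 1 to 4, and at 10.6, 11.3, 9.65 and 4.08 CPM in Yy1+/+ replicates 1 to 4. The Yy1-/- Smc3+/- libraries lay above all Yy1+/+ libraries, the lower pair by a small margin, and Yy1-/- overlapped both. The log2 fold change was 1.17 ± 0.36 for Yy1-/- Smc3+/- against Yy1+/+ (adjusted p = 0.0277) and 0.01 ± 0.37 for Yy1-/- against Yy1+/+ (adjusted p = 0.984). The call depended on single libraries. Leaving out Yy1-/- Smc3+/- replicate 3 gave 1.01 (adjusted p = 0.0772), and leaving out its replicate 4 gave 0.99 (adjusted p = 0.0867). Leaving out Yy1+/+ replicate 3 gave 1.20 (adjusted p = 0.0506), and leaving out its replicate 4 gave 0.94 (adjusted p = 0.0692). Over the alternatives the adjusted p lay between 0.0112 and 0.116.

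Plasma cells also transcribe Cd79a, so their genes are given beside it. The summed level of 10 plasma cell genes was 1236 to 3778 CPM in Yy1-/-, 2707 to 4411 CPM in Yy1-/- Smc3+/- and 1002 to 3692 CPM in Yy1+/+, and none of the 10 was at 0 in all libraries of a genotype. It was led by Jchain, the joining chain of secreted antibody, at 2264 to 3825 CPM in Yy1-/- Smc3+/- and 738.4 to 3054 CPM in Yy1+/+. Against Yy1+/+, 0 rose and 2 fell in Yy1-/- (Sdc1 and Fkbp11; median log2 fold change of the list 0.27), and 3 rose and 1 fell in Yy1-/- Smc3+/- (Eaf2, Irf4 and Derl3 rose and Sdc1 fell; median 0.59). Among all genes tested, 16.3% rose and 18.8% fell in Yy1-/-, and 13.1% rose and 16.7% fell in Yy1-/- Smc3+/-. The 3 rises were not called without Yy1-/- Smc3+/- replicate 4 (0.97 for Eaf2, 1.36 for Irf4 and 1.05 for Derl3) or without Yy1+/+ replicate 4 (1.06, 1.42 and 1.02 in the same order), and 1 or 2 of them were not called without Yy1-/- Smc3+/- replicate 3 or without Yy1+/+ replicate 1 or 3. The fall of Sdc1 in Yy1-/- Smc3+/- (-0.68 to -0.95 without single libraries) was not called without its replicates 1, 2 or 3 or without Yy1+/+ replicates 1 or 2. The fall of Fkbp11 in Yy1-/- (-0.88 to -1.44) was not called without its replicates 1 or 2 or without Yy1+/+ replicate 2. Within Yy1-/- Smc3+/-, the plasma cell sum and Cd79a were both highest in replicate 4 and lowest in replicate 1; the part of plasma cell RNA in the Cd79a difference was not tested.

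The promoters of Ebf1 and Cd79a are shown as those of the pair that rose in Yy1-/- Smc3+/-. The Ebf1 promoter is the upstream one of 2 listed, chr11:44617850-44618149, and that of Cd79a is chr7:24897247-24897546, both on the plus strand of GRCm38.p6, with the start as base 251 and capitals for the same motifs.
Ebf1: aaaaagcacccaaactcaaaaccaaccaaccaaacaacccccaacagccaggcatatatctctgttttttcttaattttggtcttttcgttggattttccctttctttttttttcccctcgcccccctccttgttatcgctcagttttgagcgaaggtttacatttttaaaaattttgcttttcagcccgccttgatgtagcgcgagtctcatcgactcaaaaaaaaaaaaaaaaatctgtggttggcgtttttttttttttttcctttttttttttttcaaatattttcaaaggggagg
Cd79a: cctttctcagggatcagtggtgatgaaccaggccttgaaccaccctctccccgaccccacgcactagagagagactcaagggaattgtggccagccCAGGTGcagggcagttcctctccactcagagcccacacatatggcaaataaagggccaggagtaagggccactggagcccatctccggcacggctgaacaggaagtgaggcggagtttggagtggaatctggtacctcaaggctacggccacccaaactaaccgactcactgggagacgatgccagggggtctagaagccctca
Cd79a holds the E box CAGGTG at base 97, as do, at other positions, the promoters of Rag1, Vpreb1, Igll1 and Blnk; 20.2% of all promoters hold it. CAGCTG was found in the promoters of Rag1 and Igll1 and in 16.3% of all. The palindrome EBF1 binds, searched as TCCC and GGGA with any 2 bases between them, was in none of the promoters of the 9 genes, both Ebf1 starts included, and in 0.904% of all.

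Cd79b was at 42.6, 46.9, 51.5 and 35.5 CPM in Yy1-/- replicates 1 to 4, at 41.5, 44.1, 47.6 and 50.1 CPM in Yy1-/- Smc3+/- replicates 1 to 4, and at 53.9, 73.8, 54.9 and 53.1 CPM in Yy1+/+ replicates 1 to 4. Every library of both mutants lay below every Yy1+/+ library, by a narrow margin. The log2 fold change was -0.42 ± 0.16 for Yy1-/- against Yy1+/+ (adjusted p = 0.0514) and -0.36 ± 0.16 for Yy1-/- Smc3+/- against Yy1+/+ (adjusted p = 0.0936), neither past the threshold. For Yy1-/- against Yy1+/+ the adjusted p was between 0.000876 and 0.133 over the alternatives: DESeq2 called it (-0.43, adjusted p = 0.0345), as did edgeR with a stricter filter (-0.43, adjusted p = 0.0407) or without Yy1-/- replicate 3 (-0.53, adjusted p = 0.0304). On log2(TPM + 0.5), where the median of all genes itself shifts by -0.21 for Yy1-/- and -0.13 for Yy1-/- Smc3+/-, limma gave -0.68 (adjusted p = 0.000876) and -0.53 (adjusted p = 0.00565). Cd79a and Cd79b, whose products work as a pair, thus had fold changes of opposite sign in Yy1-/- Smc3+/-.

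Vpreb1 ranged from 0.179 to 0.920 CPM in Yy1-/-, from 0.198 to 0.695 CPM in Yy1-/- Smc3+/- and from 0.302 to 1.56 CPM in Yy1+/+, overlapping throughout. Its log2 fold change was -1.04 (95% interval -2.27 to 0.19) for Yy1-/- and -0.89 (-2.11 to 0.33) for Yy1-/- Smc3+/- against Yy1+/+. Vpreb1 is uncertain, since the transcript of its paralog Vpreb2 is 96.5% identical over 766 aligned bases and it overlaps Top3b, at 98.1 to 142.9 CPM, on the opposite strand. Fractional expected counts, a mark of reads shared between genes, occurred in 1 of 12 libraries for Vpreb1 and in 1 of 12 for Vpreb2. Vpreb2 itself ranged from 0 to 0.606 CPM in Yy1-/-, from 0 to 0.869 CPM in Yy1-/- Smc3+/- and from 0 to 0.126 CPM in Yy1+/+, and passed the test in no comparison. Igll1 was low except in 1 library of each genotype, at 2.20 CPM in Yy1-/- replicate 3, 1.86 CPM in Yy1-/- Smc3+/- replicate 4 and 1.92 CPM in Yy1+/+ replicate 1. All other libraries had 0.287 CPM of Igll1 or less.

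Blnk, the adaptor that links the receptor kinase SYK to its targets and is also used by myeloid cells, was at 14.2, 17.7, 9.16 and 4.44 CPM in Yy1-/- replicates 1 to 4, at 7.10, 12.5, 15.5 and 14.5 CPM in Yy1-/- Smc3+/- replicates 1 to 4, and at 8.27, 8.13, 5.86 and 5.16 CPM in Yy1+/+ replicates 1 to 4. Each mutant had 3 libraries above the whole Yy1+/+ range, and 1 inside or below it. The log2 fold change was 0.73 ± 0.38 for Yy1-/- (adjusted p = 0.153) and 0.84 ± 0.38 for Yy1-/- Smc3+/- (adjusted p = 0.11) against Yy1+/+. It was called in Yy1-/- without replicate 4 (0.96, adjusted p = 0.035) and without the 3 libraries that kept Yy1 reads (1.18, adjusted p = 0.0206); the highest adjusted p over the alternatives was 0.525. In Yy1-/- the higher pair, replicates 1 and 2, were those with the most monocyte RNA, and the part of that RNA in the level of Blnk was not tested.

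Of the 10 genes, 8 passed the filter. For Yy1-/- against Yy1+/+, 0 rose and 2 fell (Rag2 and Dntt), where 35.2% of all genes tested changed (16.3% of all genes rose and 18.8% fell). The libraries of the 2 genotypes did not overlap for 3 of the 8 (Rag2, Dntt and Cd79b), against 30.9% of all genes tested, and the median log2 fold change of the 8 was -0.20, against 0.01 over all genes. An unadjusted p under 0.05 was reached by 3 of the 8 genes, against 45.3% of all genes tested. For Yy1-/- Smc3+/- against Yy1+/+, 2 rose (Ebf1 and Cd79a) and 0 fell, where 29.9% of all genes changed (13.1% rose and 16.7% fell). The libraries did not overlap for 3 of the 8 (Ebf1, Cd79a and Cd79b), against 32.2% of all genes, and the median was -0.12, against 0.02. An unadjusted p under 0.05 was reached by 4 of the 8, against 41.4% of all genes. In neither comparison was the share of early B lineage genes that changed above that of all genes. Both comparisons share the Yy1+/+ libraries.

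**Figure D2:**
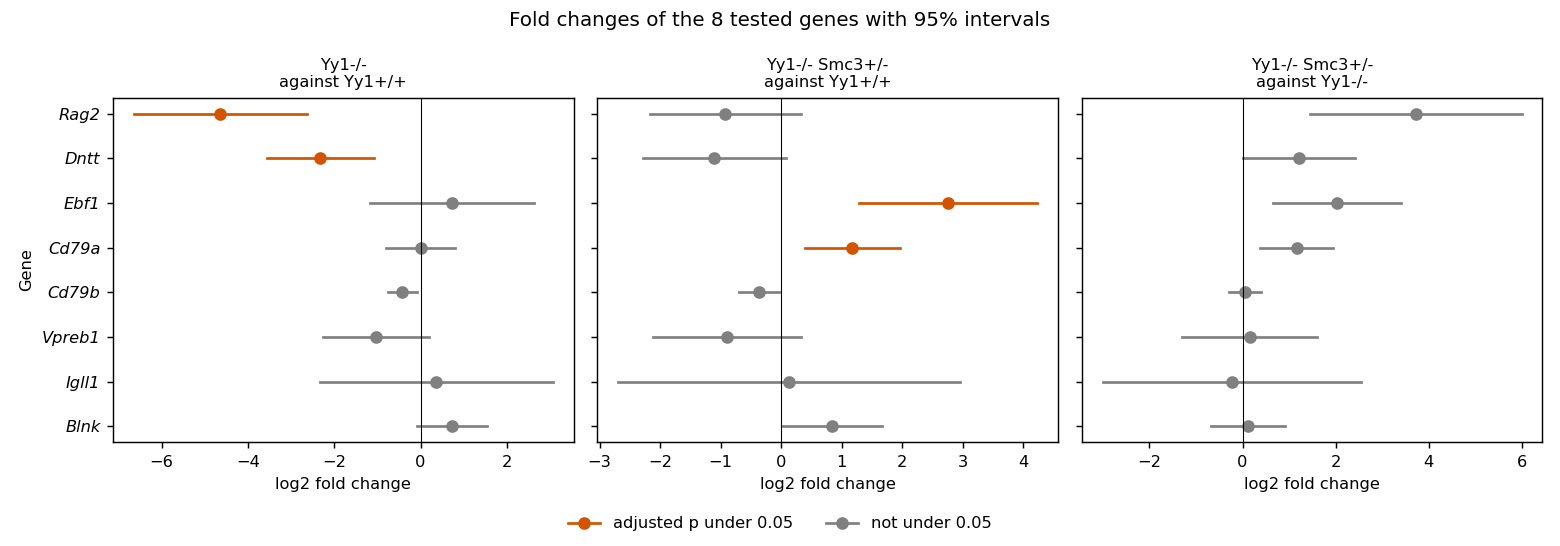
Log2 fold change (points) with 95% interval (lines) of the 8 genes that passed the filter, with 1 panel per comparison, its own axis scale in each and orange for an adjusted p under 0.05. Rag2 and Dntt lie left of 0 in Yy1-/- against Yy1+/+, Ebf1 and Cd79a right of 0 in Yy1-/- Smc3+/- against Yy1+/+, and in Yy1-/- Smc3+/- against Yy1-/- the intervals of Rag2, Dntt, Ebf1 and Cd79a lie right of 0 without an adjusted p under 0.05.

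The direct comparison of Yy1-/- Smc3+/- with Yy1-/- sets Smc3 heterozygosity against its absence among libraries labelled Yy1-/-, 3 of which kept Yy1 reads. By edgeR 0 of the 8 tested genes passed the threshold, as did 0 by DESeq2 and by limma on log2 TPM, in a comparison where 0.036% of all genes did. An unadjusted p under 0.05 was reached by 4 of the 8 (Rag2, Dntt, Ebf1 and Cd79a, all higher in Yy1-/- Smc3+/-), against 6.46% of all genes. Their log2 fold changes were 3.72 (95% interval 1.45 to 5.99, adjusted p = 0.676) for Rag2, 1.22 (0.01 to 2.42, adjusted p = 0.756) for Dntt, 2.03 (0.65 to 3.41, adjusted p = 0.746) for Ebf1 and 1.16 (0.37 to 1.95, adjusted p = 0.747) for Cd79a. Single libraries weighed on these values: without Yy1-/- Smc3+/- replicate 4 the log2 fold change was 2.71 for Rag2 and 0.58 for Dntt, without Yy1-/- replicate 2 it was 3.47 for Ebf1, and without Yy1-/- replicate 4 it was 4.68 for Rag2. With any 1 library left out, Dntt ran from 0.58 to 1.66, Ebf1 from 1.65 to 3.47 and Cd79a from 0.97 to 1.38, all not called. The libraries did not overlap for 1 of the 8 (Rag2), against 2.01% of all genes tested, nor for Rag1, which was not among the genes tested. The median of the 8 was 0.65, against 0 over all genes. Cd79b (0.05, interval -0.28 to 0.39), Vpreb1 (0.15, -1.30 to 1.59), Igll1 (-0.23, -3.00 to 2.54) and Blnk (0.12, -0.68 to 0.91) had intervals across 0. Without the 3 libraries that kept Yy1 reads, Dntt passed (2.96) with an adjusted p of 0.0255, the lowest adjusted p over the alternatives, of which the highest was 1.0. That fit set Yy1-/- replicates 1 and 2 against Yy1-/- Smc3+/- replicates 1, 2 and 4. The Yy1-/- libraries left in it were the lowest of their genotype in Dntt (8.72 and 16.0 CPM) and the highest in monocyte RNA (6670 and 4494 CPM). The part of each in this call was not tested.

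Much of the spread within Yy1-/- Smc3+/- came from replicate 4, which was the highest of its genotype for 9 of the 10 genes, all but Blnk, while it was highest for 22.7% of all genes tested. It held 26 of the 37 Rag1 counts of its genotype. Without it, Yy1-/- Smc3+/- fell below Yy1+/+ in Dntt (-1.74, adjusted p = 0.0371) and Rag2 (-1.93, adjusted p = 0.0367), both uncalled with it (Dntt -1.11, adjusted p = 0.148; Rag2 -0.92, adjusted p = 0.257). The adjusted p over all alternatives ran from 0.0371 to 0.302 for Dntt and from 0.0367 to 0.664 for Rag2. Replicate 4 was also the highest Yy1-/- Smc3+/- library for Ly6d at 82.9 CPM, for Il7r at 30.6 CPM and for the T cell sum at 140.8 CPM. Its Yy1 level was 0.944 CPM.

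Genes of lymphoid-primed and common lymphoid progenitors, the cells in which the early B genes first appear, were tested gene by gene and counted as a list. Of 18, 3 rose and 10 fell in Yy1-/- against Yy1+/+ (median log2 fold change -0.68), and 4 rose and 4 fell in Yy1-/- Smc3+/- against Yy1+/+ (median -0.26). Of all genes tested, 16.3% rose and 18.8% fell in Yy1-/-, and 13.1% rose and 16.7% fell in Yy1-/- Smc3+/-, so the counts in Yy1-/- Smc3+/- and of genes that rose in Yy1-/- lay near those shares. Il7r, the interleukin 7 receptor chain on which early B cells depend, was at 14.5, 6.08, 14.8 and 21.6 CPM in Yy1-/- replicates 1 to 4, at 10.7, 9.68, 19.9 and 30.6 CPM in Yy1-/- Smc3+/- replicates 1 to 4, and at 2.27, 1.03, 1.98 and 1.85 CPM in Yy1+/+ replicates 1 to 4. All mutant libraries were above all Yy1+/+ libraries, with log2 fold changes of 3.01 ± 0.49 for Yy1-/- (adjusted p = 0.000545) and 3.33 ± 0.49 for Yy1-/- Smc3+/- (adjusted p = 0.000307). Il7r therefore moved against Dntt and Rag2 in Yy1-/-. Tespa1, which acts in antigen receptor signalling of thymocytes, rose in both mutants. Its log2 fold change was 1.21 in Yy1-/- and 1.17 in Yy1-/- Smc3+/- against Yy1+/+; the paired values that follow give the same quantity for these genotypes in this order, all past the threshold with standard errors of 0.14 to 0.37.

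Ltb, the membrane anchor chain of lymphotoxin, fell to 43.6 ± 9.53 CPM in Yy1-/- and 45.7 ± 8.49 CPM in Yy1-/- Smc3+/-, against 187.7 ± 49.0 CPM in Yy1+/+ (-2.11 and -2.04). Cd27, a receptor of the tumour necrosis factor family, fell likewise (-1.25 and -1.10), as did Lsp1, a leukocyte actin-binding protein (-0.76 and -1.05). Flt3, the receptor that defines lymphoid-primed progenitors, fell in Yy1-/- (-0.59 ± 0.17, adjusted p = 0.0172) and had -0.13 ± 0.17 in Yy1-/- Smc3+/- (adjusted p = 0.605). Without Yy1+/+ replicate 4 the log2 fold change of Flt3 in Yy1-/- was -0.54, and the call was lost (adjusted p = 0.05). Over the alternatives that adjusted p ran from 0.00183 to 0.05. Ly6d, which marks common lymphoid progenitors leaning to the B lineage, was at 6.46 to 14.5 CPM in Yy1-/-, 19.3 to 82.9 CPM in Yy1-/- Smc3+/- and 5.09 to 16.9 CPM in Yy1+/+. It rose in Yy1-/- Smc3+/- (1.89 ± 0.45, adjusted p = 0.00711; 1.27 without Yy1-/- Smc3+/- replicate 4, adjusted p = 0.0249, of a range of 0.000195 to 0.0249 over the alternatives) and had -0.02 ± 0.45 in Yy1-/- (adjusted p = 0.979). The difference of Yy1-/- Smc3+/- from Yy1-/- itself was 1.91 ± 0.45 for Ly6d (adjusted p = 0.499).

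**Figure D3:**
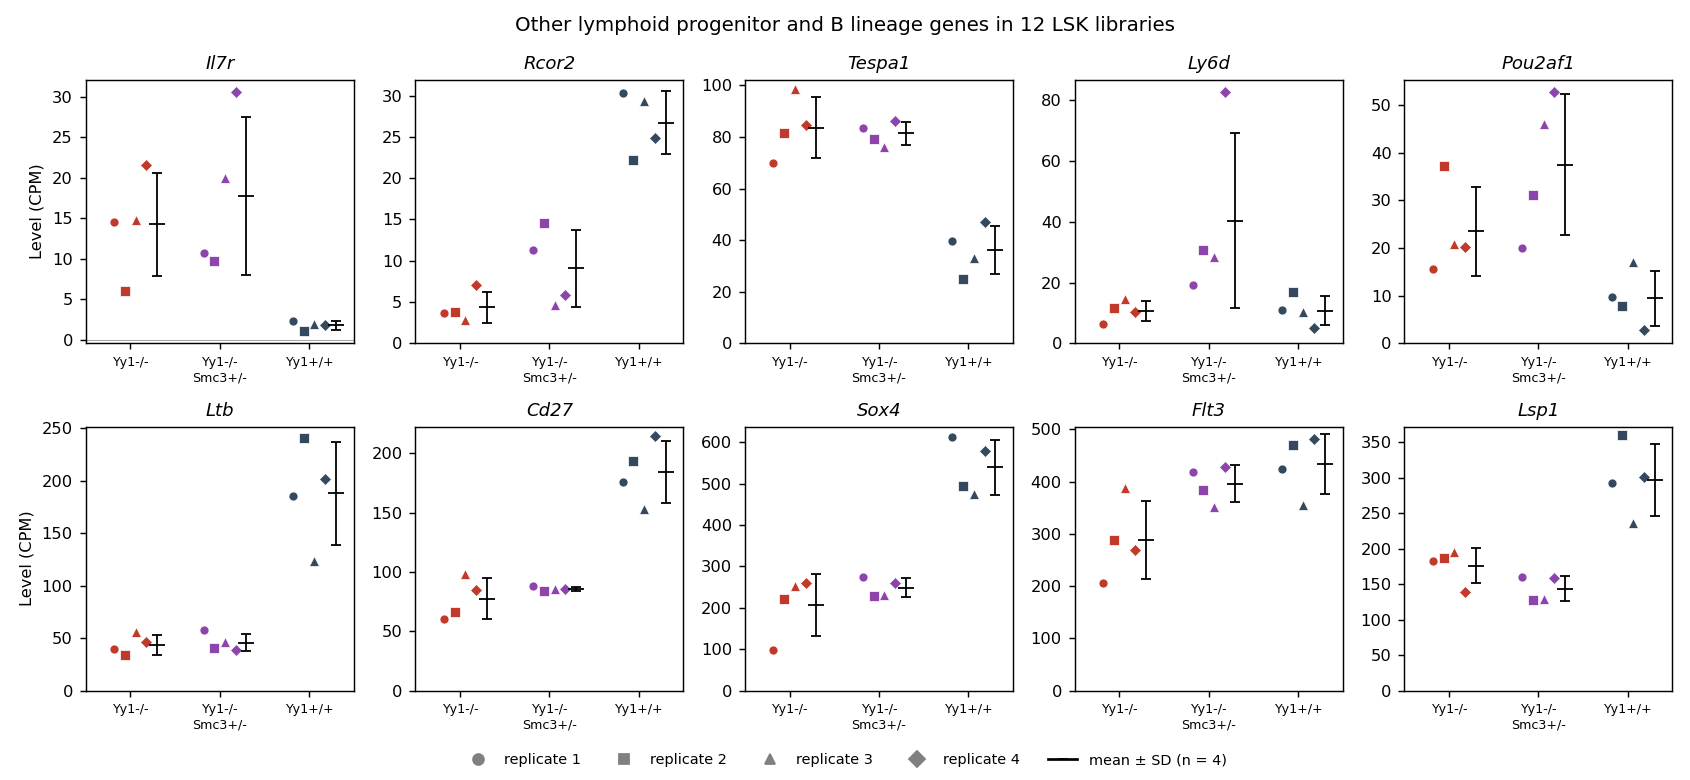
Level in CPM (linear axis from 0, own scale per gene) of 10 other lymphoid progenitor and B lineage genes in the 4 libraries of each genotype, with the replicate as marker shape and the mean ± SD as black bars. Il7r and Tespa1 are higher and Rcor2, Ltb, Cd27, Sox4 and Lsp1 lower in every library of both mutants than in Yy1+/+, and Ly6d is higher in every Yy1-/- Smc3+/- library than in any other.

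Of 20 transcription factors of the B lineage, 4 rose and 6 fell in Yy1-/- (median -0.10), and 4 rose and 5 fell in Yy1-/- Smc3+/- (median -0.06). Among all genes, 16.3% rose and 18.8% fell in Yy1-/-, and 13.1% rose and 16.7% fell in Yy1-/- Smc3+/-. Sox4, needed for B cell progenitors to survive, averaged 207.4 ± 74.6 CPM in Yy1-/-, 248.1 ± 22.6 CPM in Yy1-/- Smc3+/- and 539.4 ± 66.2 CPM in Yy1+/+ (-1.38 and -1.12). Rcor2, a corepressor subunit, averaged 4.38 ± 1.87 CPM in Yy1-/-, 9.10 ± 4.66 CPM in Yy1-/- Smc3+/- and 26.7 ± 3.82 CPM in Yy1+/+ (-2.61 and -1.55). Zfp521, a zinc finger antagonist of EBF1, fell in both (-1.17 and -0.90). Pou2af1, the coactivator OCA-B of B and plasma cells, averaged 23.5 ± 9.38 CPM in Yy1-/-, 37.5 ± 14.8 CPM in Yy1-/- Smc3+/- and 9.43 ± 5.87 CPM in Yy1+/+. It rose in Yy1-/- Smc3+/- (1.99 ± 0.45, adjusted p = 0.00507) and in Yy1-/- (1.32 ± 0.44, adjusted p = 0.0341). The call in Yy1-/- was lost when its replicate 2 (1.01) or 3 (1.34) or Yy1+/+ replicate 1 (1.34), 2 (1.24) or 4 (1.03) was left out, and its adjusted p lay between 0.0118 and 0.108 over the alternatives.

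Other lists covered the signalling and repair machinery around the early B genes. Their counts stand beside shares of all genes of 16.3% risen and 18.8% fallen in Yy1-/-. In Yy1-/- Smc3+/- these shares were 13.1% and 16.7%. For the receptor signalling and the recombination list, the counts lay near or below these shares. Of 22 genes of pre-B and B cell receptor signalling, 3 rose and 1 fell in Yy1-/- (median 0.11), and 1 rose and 1 fell in Yy1-/- Smc3+/- (median 0.12). The adaptor Pik3ap1 rose (1.08 and 0.89) and the kinase Fyn fell (-0.75 and -0.71) in both, and the kinase Lyn rose in Yy1-/- (1.20). Of 18 genes of recombination and end joining other than the Rag genes and Dntt, 3 rose and 2 fell in Yy1-/- (median 0.02), and 3 rose and 1 fell in Yy1-/- Smc3+/- (median -0.02). Hmgb2, a DNA-bending protein that assists the RAG recombinase, rose in both (1.08 and 1.02). H2afx also rose in both, while Xrcc4 fell in both and Trp53bp1 fell in Yy1-/-. Under some alternatives calls of these 3 genes were lost. Their highest adjusted p was 0.0978 for H2afx in Yy1-/-, 0.0815 for Trp53bp1 in Yy1-/-, and for Xrcc4 0.072 in Yy1-/- and 0.0935 in Yy1-/- Smc3+/-. Polm, a polymerase of the same family as the Dntt product, averaged 6.52 ± 0.842 CPM in Yy1-/-, 6.36 ± 0.525 CPM in Yy1-/- Smc3+/- and 2.60 ± 0.904 CPM in Yy1+/+ (1.35 and 1.31), and so went against Dntt.

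Of 13 genes of interleukin 7 signalling, 3 rose and 5 fell in Yy1-/- (median -0.39), and 2 rose and 4 fell in Yy1-/- Smc3+/- (median -0.30). With Il7r, the survival gene Bcl2 rose (1.01 and 1.33). The kinase Jak1, which works at this receptor, fell (-0.79 and -0.78), as did Cish, a target of STAT5 that dampens the signal (-0.97 and -1.41). Of 14 mature B cell genes tested, 0 rose and 4 fell in Yy1-/- (median -0.01), and 2 rose and 4 fell in Yy1-/- Smc3+/- (median 0.24). Among all genes, 16.3% rose and 18.8% fell in Yy1-/-, and 13.1% rose and 16.7% fell in Yy1-/- Smc3+/-. In both lists the count that rose in Yy1-/- Smc3+/- lay near that share. Tnfrsf13c, the receptor for the B cell survival factor BAFF, fell (-2.45 and -1.68), as did H2-Ob, a subunit of the class II chaperone H2-O (-2.41 and -1.98). In Yy1-/- Smc3+/- against Yy1-/-, 0 genes of any list named here passed the edgeR test.

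**Figure D4:**
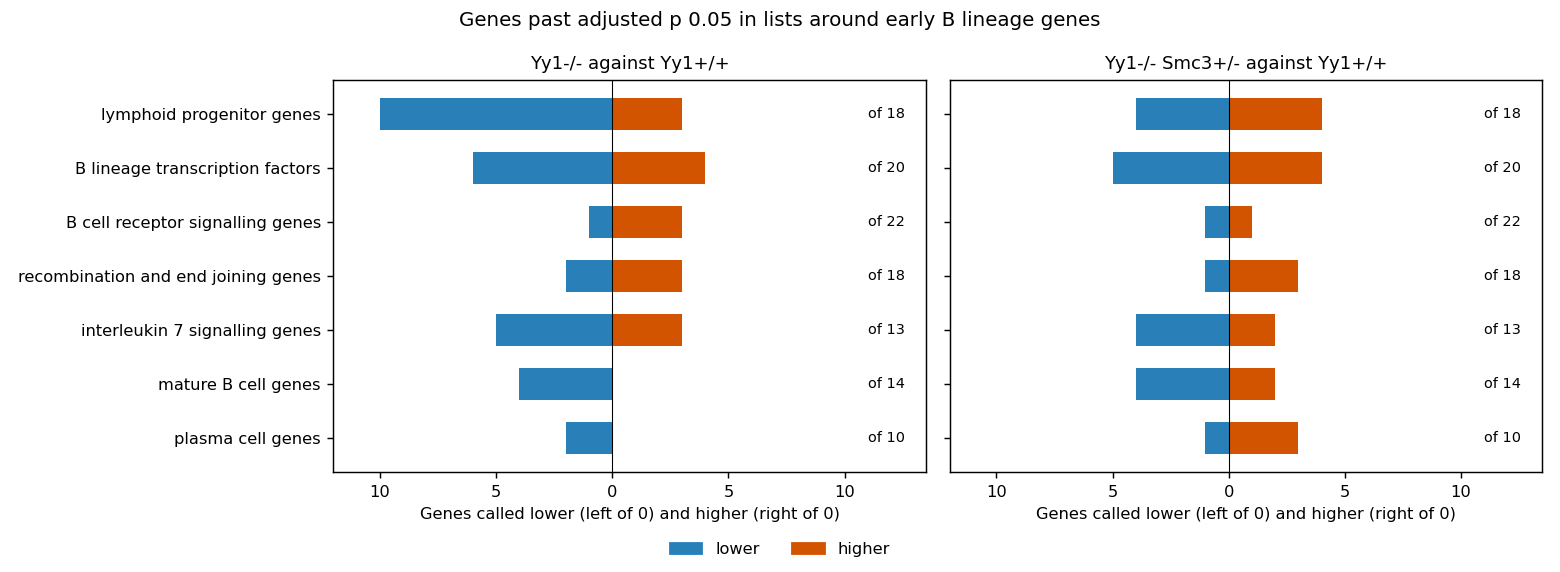
Number of genes that fell (blue, left of 0) and rose (orange, right of 0) at an adjusted p under 0.05 in 7 lists around the early B genes, for Yy1-/- against Yy1+/+ and Yy1-/- Smc3+/- against Yy1+/+, with the number tested at the right of each bar. The lymphoid progenitor list has 10 fallen genes in Yy1-/- and 4 in Yy1-/- Smc3+/-. Among all genes tested, 16.3% rose and 18.8% fell in Yy1-/-, and 13.1% rose and 16.7% fell in Yy1-/- Smc3+/-.

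By likeness of pattern, the genes nearest to Dntt over the 12 libraries, after the mean of each genotype was subtracted from log2 CPM, were Icam5 (Pearson r = 0.91), Ap1s3 (0.91), Lck (0.90), Lynx1 (0.90) and Ppp1r9a (0.90). Those nearest to Cd79b were Zdhhc20 (0.93), Rab33b (0.90), Pag1 (0.89), Nfix (0.88) and Neo1 (0.88). These are the highest of many genes, over libraries that differ in depth and in the RNA of other cell types, and are given as a description. Icam5, Ap1s3 and Lynx1 had few reads, with genotype means between 0.217 and 1.65 CPM. Lck, a kinase of T cells, was at 8.08, 11.4, 33.5 and 33.0 CPM in Yy1-/- replicates 1 to 4 and thus shared the low replicates 1 and 2 of Dntt.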

How the data were processed

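RNA of sorted LSK cells was purified with a micro column kit and made into libraries with SMART-Seq v4, per the labels' protocols. STAR 2.5.2b, RSEM 1.3.0 and build mm10 are named per the submitters' processing notes, without settings. The deposited tables give, per the file headers, the expected count of each gene (estimated reads, not scaled) and the TPM the authors computed (scaled by length and to a common sum). Symbols came from GENCODE M21, in which 55094 of 55487 identifiers matched with their version and 300 without.

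Rounded expected counts went into edgeR 4.0.16 (R 4.3.3): filterByExpr (minimum count 10, total 15), TMM factors, 1 quasi-likelihood model over all 12 libraries with the current dispersion estimate (legacy = FALSE), and Benjamini-Hochberg adjustment over 16649 genes at 0.05. The test was checked on simulated data. Few genes were changed there, all above a minimum level in Yy1+/+, so the check does not cover changes of the lowest genes or broad change. CPM are TMM-scaled. Alternatives used DESeq2 1.42.0, limma 3.58.1, other filters and left-out libraries. The 10 genes and the 13 other gene lists were chosen with earlier results of these data known. From each list, the rule for names allowed up to 3 called genes with the smallest p per comparison, called genes moving against the majority where these were 3 or fewer and, for cell types, the 3 highest in level; likeness took the 5 nearest named genes of the 2 genes highest by TPM in Yy1+/+; Yy1, Kit and Ly6a checked labels and sort. Vpreb2, Lck, B230118H07Rik, Top3b and Gm12158 are named for their relation to a member, chosen after their values were seen. Some genes of the lists are not reported here.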

Additional observations from a re-analysis of the deposited data

Results flagged for a closer look

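Over 29 groups of 4 libraries, 9 had an end library far from the other 3 by Dixon's criterion, which sets the gap to the nearest library against the range of the group; chance gives such a gap in about 1 in 20 groups of continuous values. That rate does not hold for genes with few reads, where a single library with reads meets the criterion by construction (Pax5 in Yy1-/- and Yy1+/+), and the 10 genes are not independent of each other. In Yy1-/- Smc3+/- replicate 4 this was so for Rag1 at 0.646 CPM, Rag2 at 4.12 CPM, Pax5 at 0.646 CPM and Igll1 at 1.86 CPM. In Yy1-/- replicate 3 it was so for Pax5 at 0.0673 CPM and Igll1 at 2.20 CPM, and in Yy1+/+ replicate 1 for Pax5 at 0.0939 CPM and Igll1 at 1.92 CPM. Cd79b in Yy1+/+ replicate 2 was the remaining case, at 73.8 CPM. All 9 were the highest library of their group, and the Pax5 values other than that of Yy1-/- Smc3+/- replicate 4 rest on 3 and 5 counts.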

How the results depend on the processing

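Of the 20 alternatives, 19 were listed at the start and 1, the older dispersion estimate of edgeR, was chosen after seeing the data. Among the 19, the alternative without the 3 libraries that kept Yy1 reads was itself defined by Yy1 levels seen in these data. No paired analysis was possible because the labels give no replicate numbers that tie libraries of different genotypes together. The fall of Rag2 and Dntt in Yy1-/- against Yy1+/+ was called under every alternative run. The count of changed members for Yy1-/- Smc3+/- against Yy1+/+ was between 1 and 3 when single libraries were left out, 1 without the 3 libraries that kept Yy1 reads and 1 with the older dispersions; for Yy1-/- Smc3+/- against Yy1-/- it was 1 without those 3 libraries. The cause was not tested. Of the alternative values of single members, 417 kept direction and call, 8 lost the call, 12 gained it and 31 turned their sign, all 31 for fold changes that were not called. They were, for Yy1-/- against Yy1+/+, Ebf1 (-0.09 on log2(TPM + 0.1)), Cd79a (-0.03 with no filter on low counts, -0.01 with at least 1 CPM in 4 libraries, -0.22 on log2(TPM + 0.5) and -0.23 on log2(TPM + 0.1)) and Igll1 (-2.72 without the 3 libraries). For Yy1-/- Smc3+/- against Yy1-/- they were Igll1 (0.05 on log2(TPM + 0.5), 0.31 on log2(TPM + 0.1) and 3.08 without the 3 libraries) and Blnk (-0.51 without the 3 libraries). With single libraries left out, the values for Yy1-/- against Yy1+/+ ran from -0.71 to 1.09 for Ebf1, from -0.22 to 0.15 for Cd79a and from -1.85 to 4.24 for Igll1, and that of Igll1 for Yy1-/- Smc3+/- against Yy1+/+ ran from -1.76 to 4.01. For Yy1-/- Smc3+/- against Yy1-/- they ran from -0.05 to 0.13 for Cd79b, from -0.15 to 0.79 for Vpreb1, from -2.13 to 1.94 for Igll1 and from -0.16 to 0.42 for Blnk. Of the alternative values of other named genes that were called, 1997 kept the call and 136 lost it, and 0 turned their sign.

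Depth limits the low genes. Rag1 and Pax5 were below the filter, Igll1 rests on 1 library per genotype, and Rag2 and Ebf1 have few reads in the lower genotype, so their fold changes depend on the pseudocount (-2.03 for Rag2 in Yy1-/- and 0.90 for Ebf1 in Yy1-/- Smc3+/- on log2(TPM + 0.5), against Yy1+/+).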

Other observations

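Genes of other blood lineages moved in the same libraries. Their counts stand beside shares of all genes of 16.3% risen and 18.8% fallen in Yy1-/-. In Yy1-/- Smc3+/- these shares were 13.1% and 16.7%. Of 11 plasmacytoid dendritic cell genes tested, 5 rose and 0 fell in Yy1-/- against Yy1+/+ (median log2 fold change 1.12), and 4 rose and 0 fell in Yy1-/- Smc3+/- against Yy1+/+ (median 0.53). Siglech, a lectin of these cells, rose in both (log2 fold changes 3.81 and 3.32, edgeR), and Ly6d, which they also transcribe, rose in Yy1-/- Smc3+/-. The summed level of the 12 genes was 301.8 to 554.7 CPM in Yy1-/-, 320.9 to 440.4 CPM in Yy1-/- Smc3+/- and 254.9 to 301.3 CPM in Yy1+/+. Of 14 T cell genes tested, 6 rose and 1 fell in Yy1-/- (median 1.10), and 6 rose and 2 fell in Yy1-/- Smc3+/- (median 1.42). Cd3e, a signalling chain of the T cell receptor complex, rose in both (5.22 and 5.07), while Lat, an adaptor of that receptor, fell (-1.61 and -1.02).

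The summed level of the 15 T cell genes was 62.5 to 135.7 CPM in Yy1-/-, 85.8 to 140.8 CPM in Yy1-/- Smc3+/- and 89.6 to 170.1 CPM in Yy1+/+. Of 10 monocyte genes, 7 rose in Yy1-/- (median 2.82) and 4 in Yy1-/- Smc3+/- (median 1.54), and 0 fell in either; Ms4a6c rose by 3.12 and 1.90 on the log2 scale. Of 10 neutrophil granule genes, 1 (Ctsg) rose in each mutant and 0 fell (median 0.22 in Yy1-/- and -0.14 in Yy1-/- Smc3+/-). These neutrophil counts lay below the shares of all genes. Of 10 erythroid genes, 0 rose in either mutant, 3 fell in Yy1-/- (median -1.41) and 4 in Yy1-/- Smc3+/- (median -2.40), with Car2, a carbonic anhydrase of red cell precursors, at -2.77 and -2.78. The part of these cell types in the levels of the early B lineage genes was not tested.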
